A study of Rattus norvegicus with 11 samples.

Results

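Nodal and Gdf3 encode secreted ligands of the TGF-beta superfamily, and Acvr1c encodes ALK7, a type I receptor for Nodal. The 3 genes were taken by symbol from an array table of rat embryonic stem cells under conversion to hypoblast stem cells, where each was measured by 1 row, so that they make up 3 of the 14506 genes tested. All 3 were high in the stem cells and lower at day 32. At day 32 Nodal still stood above the background level defined below, and Gdf3 and Acvr1c were near or within it. In feeder cultures the fall came between day 7 and day 17, and in feeder-free cultures most of it came before day 7.

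The study followed the rat embryonic stem cell line DAc2 on Affymetrix Rat Gene 1.0 ST arrays at days 0, 7, 17 and 32 of conversion. In the feeder culture the stem cells had been kept on mouse embryonic fibroblasts with CHIR99021 at 3 µM, a GSK3 inhibitor, and PD0325901 at 0.5 µM, a MEK inhibitor. In the feeder-free culture they had been kept on laminin in N2B27 medium, with BMP4 at 5 ng/mL, PD0325901 at 2 µM and CHIR99021 again at 3 µM. All cultures were then moved to the medium used for rat multipotent adult progenitor cells, with LIF, EGF, PDGF and 2% serum, and day 0 is the stem cell before that move. Each of the 4 days had 1 array of the feeder culture. The feeder-free culture had a lone array for day 0 and pairs of arrays for days 7, 17 and 32. These pairs are biological replicates in the labels, which do not state that they were grown apart, and the p-values may therefore reflect technical spread between arrays. All cells came from this 1 line, and the labels do not say whether mouse fibroblasts were carried into the conversion.

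Nodal and Gdf3 bind a type II receptor and a type I receptor, ALK4 (Acvr1b) or ALK7 (Acvr1c), with the help of a co-receptor of the Cripto family. The activated type I receptor phosphorylates Smad2 and Smad3, which enter the nucleus with Smad4 and act on DNA with partners such as Foxh1. Nodal itself and the Lefty genes, whose products block the receptor complex, are textbook targets, so the pathway holds both a positive and a negative feedback loop. In the early mouse embryo Nodal is made in the epiblast and the visceral endoderm, a descendant of the hypoblast, and acts in patterning of the embryo. Gdf3 is known in mouse and human as a gene of pluripotent cells.

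The promoters of Nodal and Acvr1c are shown because both genes were followed through a change of cell state and because Nodal is a known target of its own pathway. They come from RefSeq (build GRCr8), which gave a promoter window for 2 of the 3 genes. Each runs 5′ to 3′ on the gene's strand, from 250 bases before the gene start to 50 bases after it. Capitals mark the SMAD box CAGAC in Nodal and the GC box GGGCGG, on either strand, in Acvr1c. The Nodal window is chr20:29911008-29911307 on the plus strand, and the Acvr1c window is chr3:63301105-63301404 on the minus strand.
Nodal: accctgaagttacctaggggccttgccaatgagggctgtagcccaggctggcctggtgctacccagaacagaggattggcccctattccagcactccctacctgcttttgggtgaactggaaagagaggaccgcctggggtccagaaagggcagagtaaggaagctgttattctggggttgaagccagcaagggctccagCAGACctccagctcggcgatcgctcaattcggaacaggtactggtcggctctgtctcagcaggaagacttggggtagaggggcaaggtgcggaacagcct
Acvr1c: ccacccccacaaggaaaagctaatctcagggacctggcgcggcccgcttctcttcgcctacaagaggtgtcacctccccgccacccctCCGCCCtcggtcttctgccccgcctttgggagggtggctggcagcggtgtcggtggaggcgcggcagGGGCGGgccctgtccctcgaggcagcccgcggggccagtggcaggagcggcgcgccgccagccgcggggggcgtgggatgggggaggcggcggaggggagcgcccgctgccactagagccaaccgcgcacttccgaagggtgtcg
The SMAD box of Nodal began 50 bases before the gene start. It was found on at least 1 strand of 50.1% of all 33469 promoter windows, so its presence in this window is not unusual. The window held no GC box and no match to the FOXH1 motif TGTNNATT, which 12.8% of the windows held. Acvr1c had GC boxes beginning 162 and 95 bases before the gene start, the one farther away lying on the other strand, and GC boxes stood in 33.1% of all windows. No SMAD box or FOXH1 motif was found in its window. The 3 motifs do not overlap one another in these windows. The 2 windows differed in base composition, with 73.7% GC and 31 CpG pairs in Acvr1c and 58.3% GC and 7 CpG pairs in Nodal, against medians of 51.7% and 7 over all windows. A motif match is a description of the letters and not evidence of binding.

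The values are log2 expression from RMA, and every array had the same median of 8.97. Levels were set against 1240 olfactory and vomeronasal receptor genes, of which 95% had a mean level under 8.06, and a level under that value is called here indistinguishable from this background. The cell type labels were checked with marker lists. Averaged over each list, 7 stem cell genes stood at 12.88, 12.82, 10.65 and 10.83 at days 0, 7, 17 and 32 of the feeder culture, and 8 hypoblast genes stood at 9.63, 11.06, 13.83 and 13.89. In the feeder-free culture the hypoblast genes averaged 9.84 at day 0 and between 13.71 and 14.31 on the later arrays, and the stem cell genes averaged 13.65 at day 0 and between 10.97 and 11.72 later. The feeder day 7 array thus lay near its day 0 array for the stem cell genes, unlike the feeder-free day 7 arrays. All 12 fibroblast markers were higher on the feeder day 0 array than on every feeder-free array, and 9 of 12 were at feeder day 7. Their mean was 9.87 and 8.89 on those feeder arrays, and lay between 8.07 and 8.15 on the feeder-free arrays. In the feeder-free day 7 pair 6 trophoblast markers averaged 12.03 and 12.17, against 9.94 in the day 0 array. The part of fibroblast and trophoblast RNA in the values below was not tested. In bulk samples fewer cells of a type and less RNA per cell cannot be told apart.

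Nodal had log2 levels of 12.95, 12.70, 10.55 and 10.38 at days 0, 7, 17 and 32 of the feeder culture. In the feeder-free culture it had 13.54 at day 0, 11.07 and 10.99 at day 7, 10.34 and 10.47 at day 17, and 10.85 and 10.83 at day 32. The gene therefore kept a high level to day 7 with feeders, while the feeder-free day 7 arrays were already closer to the day 17 arrays than to the stem cells. The lowest array still stood above the receptor background. In the fit of all arrays Nodal fell by 2.52 ± 0.45 (SE) on the log2 scale between day 0 and day 32, which is 5.72-fold (limma, adjusted p = 0.00333). Every day 32 array lay below both day 0 arrays.

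Gdf3 had log2 levels of 11.69, 11.65, 7.12 and 7.70 at days 0, 7, 17 and 32 of the feeder culture. In the feeder-free culture it had 12.42 at day 0, 9.40 and 9.48 at day 7, 8.46 and 8.74 at day 17, and 8.53 and 8.52 at day 32. Its feeder day 17 and day 32 arrays fell within the receptor background and below all feeder-free arrays, whose later values stayed just above it. Gdf3 fell by 3.83 ± 0.72 on the log2 scale between day 0 and day 32 in the fit of all arrays (limma, adjusted p = 0.00429). With the feeder day 32 level within the background, the size of this fall is not fixed. Between day 7 and day 17 of the feeder culture alone its change was -4.53, a value from 1 array a day, without a test of its own and against a day 17 level within the background.

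Acvr1c had log2 levels of 10.19, 10.77, 8.15 and 8.16 at days 0, 7, 17 and 32 of the feeder culture. In the feeder-free culture it had 12.60 at day 0, 8.13 and 8.58 at day 7, 7.76 and 7.89 at day 17, and 7.71 and 7.86 at day 32. The receptor was thus much lower in the feeder stem cells than in the feeder-free stem cells, and it had reached the edge of the background by day 7 in the feeder-free culture. Acvr1c fell by 3.43 ± 0.81 between day 0 and day 32 (limma, adjusted p = 0.0121), a size that is likewise not fixed, since both feeder-free day 32 arrays lay within the background.

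Between day 0 and day 32 all 3 genes were called lower, in a comparison in which 31% of all genes were called and 13.7% were called lower. In the joint fit Gdf3 stood at 23, Acvr1c at 44 and Nodal at 137 among the falls of the 14506 genes, ranks that for Gdf3 and Acvr1c rest in part on levels within the background. These calls rest on the feeder-free day 0 array. Without it the changes were -1.96 for Nodal, -3.47 for Gdf3 and -1.58 for Acvr1c, with adjusted p-values of 0.0514, 0.052 and 0.131 by limma, and the feeder culture alone then gave the day 0 level. Within the feeder culture the change between day 0 and day 32 was -2.57 for Nodal, -3.99 for Gdf3 and -2.02 for Acvr1c, and within the feeder-free culture it was -2.70, -3.89 and -4.82.

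**Figure D1:**
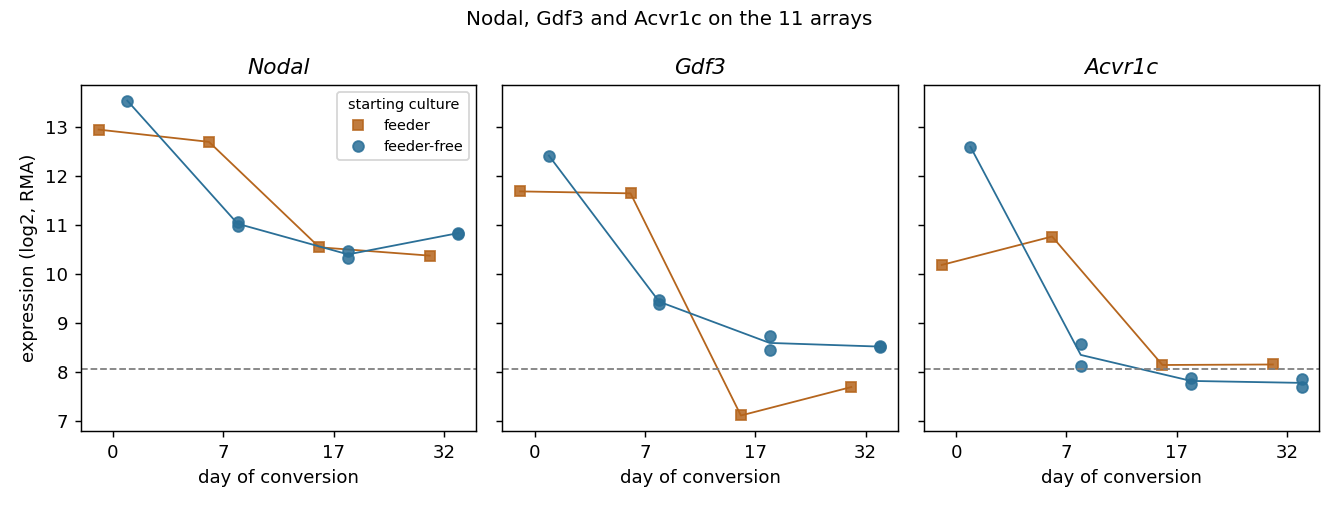
Log2 expression of Nodal, Gdf3 and Acvr1c on each of the 11 arrays against the day of conversion, feeder arrays as squares and feeder-free arrays as circles, with lines through the group means and a dashed line at 8.06, under which 95% of the receptor genes lie. The feeder squares stay high to day 7 (12.70, 11.65 and 10.77), where the feeder-free means are 11.03, 9.44 and 8.35.

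Between day 0 and day 7 the 3 genes changed differently in the cultures. Nodal changed by -0.24 in the feeder culture and by -2.50 in the feeder-free culture, and the difference between these changes was 2.26 ± 0.19 (adjusted p = 1.19e-06). Gdf3 changed by -0.04 with feeders and by -2.97 without, a difference of 2.93 ± 0.21 (adjusted p = 2.94e-07). Acvr1c stood 0.58 higher at day 7 than at day 0 with feeders and gave -4.25 without, so that its direction was opposite in the cultures. That difference of 4.83 ± 0.26 ranked 2nd among the 14506 genes in the direction of a relative rise in the feeder culture (adjusted p = 2.39e-08). The 3 differences were called by limma in a fit with a mean for each of the 8 groups, in which 22% of all genes were called and 10.9% in this direction. Its 3 residual degrees of freedom come from the pairs of arrays of the feeder-free culture, and it takes the lone feeder and day 0 arrays to vary as those pairs do.

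Between day 7 and day 17 the order was turned around. The change of Nodal was -2.16 with feeders and -0.63 without, that of Gdf3 -4.53 and -0.84, and that of Acvr1c -2.62 and -0.53. The steeper fall in the feeder culture held for all 3 genes, with differences of -1.53 ± 0.17 for Nodal (adjusted p = 2.28e-05), -3.69 ± 0.19 for Gdf3 (adjusted p = 3.83e-08) and -2.09 ± 0.24 for Acvr1c (adjusted p = 2.15e-05) in the same limma fit. Of all genes 19.7% were called in this comparison and 8.97% in this direction. The value for Gdf3 rests on its feeder day 17 array, which lay within the background. For Acvr1c the feeder-free day 7 arrays, at 8.13 and 8.58, were already near the background. Its feeder-free day 17 arrays, at 7.76 and 7.89, lay within it, so the size of its feeder-free fall and of its difference is not fixed. Both sets of differences share the day 7 arrays, so they are not separate evidence. All of these differences kept their calls when each of the 6 arrays of the feeder-free pairs was left out in turn, and the lone feeder and day 0 arrays cannot be left out of them.

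By day 7 the feeder-free culture had made 92.8% of its day 0 to day 32 change in Nodal, 76.4% in Gdf3 and 88.1% in Acvr1c. In the feeder culture these shares were 9.47% for Nodal and 1.07% for Gdf3, and -28.9% for Acvr1c, the negative share standing for its higher day 7 level. The shares of Acvr1c without feeders and of Gdf3 with feeders are approximate, since those changes end within the background at day 32. Over the whole course, from day 0 to day 32, the change with feeders differed from that without by 2.80 ± 0.26 for Acvr1c (limma, adjusted p = 8.3e-06), in a comparison where 10.6% of all genes were called and 5.87% in this direction. Both day 32 levels of Acvr1c are near or in the background, and the day 0 levels were 10.19 with feeders and 12.60 without. For Nodal the difference over the whole course was 0.13 ± 0.19 (adjusted p = 0.779) and for Gdf3 -0.10 ± 0.21 (adjusted p = 0.859). These did not pass the test, which does not show the total changes to be equal.

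**Figure D2:**
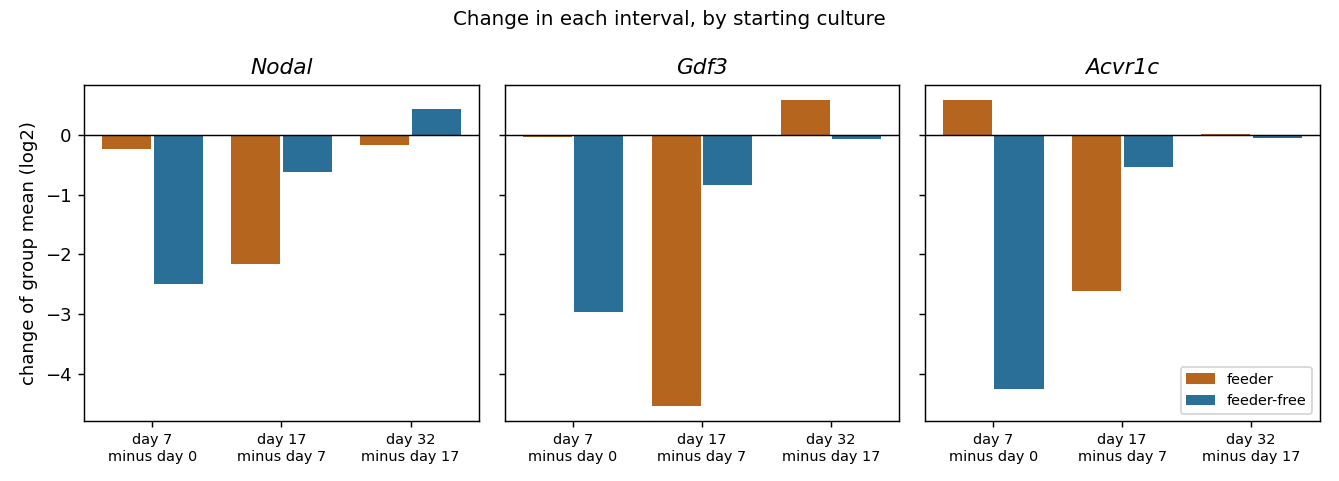
Change of the group mean (log2) of Nodal, Gdf3 and Acvr1c in each of the 3 intervals between sampled days, feeder bars left of feeder-free bars, with a bar below 0 for a fall. The deepest feeder bars lie in the interval from day 7 to day 17 (-2.16, -4.53 and -2.62) and the deepest feeder-free bars in that from day 0 to day 7 (-2.50, -2.97 and -4.25).

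The feeder-free arrays allowed a test of each interval on their own. In a limma fit of these 7 arrays all 3 genes were called lower at day 7 than at day 0, with changes of -2.50 ± 0.12 for Nodal (adjusted p = 1.3e-09), -2.97 ± 0.14 for Gdf3 (adjusted p = 6.31e-10) and -4.25 ± 0.17 for Acvr1c (adjusted p = 1.43e-10), where 36.9% of all genes were called and 20.7% called lower. Day 0 is a lone array in this fit, so no spread between stem cell cultures stands behind these day 7 calls. All 3 genes were called lower again at day 17 than at day 7, with changes of -0.63 ± 0.10 for Nodal (adjusted p = 0.000492), -0.84 ± 0.11 for Gdf3 (adjusted p = 9.26e-05) and -0.53 ± 0.14 for Acvr1c (adjusted p = 0.0123), where 23.8% of all genes were called and 7.36% called lower. For Acvr1c both day 17 arrays lay within the background. Between day 17 and day 32 Nodal rose by 0.43 ± 0.10 (adjusted p = 0.017), with 7.32% of all genes called and 2.15% called higher. Both day 32 arrays, at 10.85 and 10.83, lay above both day 17 arrays, at 10.34 and 10.47. Gdf3 and Acvr1c gave -0.07 ± 0.11 and -0.05 ± 0.14 in that interval, with adjusted p-values of 0.819 and 0.919. In the feeder culture Nodal changed by -0.17 in the same interval, and the difference between the cultures there was not tested.

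With both cultures in 1 fit, only Nodal was called between day 0 and day 7, at -1.61 ± 0.45 (limma, adjusted p = 0.0427), where 16% of all genes were called and 9.27% called lower. Gdf3 gave -1.90 ± 0.72 (adjusted p = 0.112) and Acvr1c -2.18 ± 0.81 (adjusted p = 0.106). This fit holds 1 difference between the cultures over all days, so the unequal changes of the cultures enter its error. Without the feeder day 7 array all 3 genes were called, at -2.35, -3.13 and -3.24, and without the feeder-free day 0 array Acvr1c gave -0.33. The call of Nodal was lost without 8 of the 11 arrays in turn. Between day 7 and day 17 none of the 3 genes passed the test, with changes of -1.14 ± 0.40 (adjusted p = 0.0954), -2.07 ± 0.64 (adjusted p = 0.0663) and -1.22 ± 0.72 (adjusted p = 0.287) for Nodal, Gdf3 and Acvr1c, and 12.8% of all genes called. Without the feeder day 7 array these changes were -0.49, -0.99 and -0.28, and that of Gdf3 then passed the test (adjusted p = 0.00736). Between day 17 and day 32 limma called 0 of the 14506 genes, with 1057 at an unadjusted p under 0.05, and the 3 genes gave 0.23 ± 0.40, 0.14 ± 0.64 and -0.03 ± 0.72.

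The mean difference between the cultures over all days was small beside its error for each gene. Feeder minus feeder-free was 0.24 ± 0.31 for Nodal (adjusted p = 0.58), -0.17 ± 0.50 for Gdf3 (adjusted p = 0.818) and 0.35 ± 0.56 for Acvr1c (adjusted p = 0.661), where limma called 32.7% of all genes. On single days the differences ran in opposite directions. Feeder minus feeder-free was -0.59 for Nodal at day 0 and 1.67 at day 7. For Acvr1c it was -2.42 at day 0 and 2.42 at day 7. For Gdf3 it was -0.72 at day 0, 2.21 at day 7 and -1.48 at day 17. Each gene was thus lower with feeders in the stem cells and higher with feeders at day 7. Without the feeder day 7 array the difference for Gdf3 was -1.04 and passed the test (adjusted p = 0.000426), and those for Nodal and Acvr1c were -0.28 and -0.40.

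In order of level the feeder-free day 0 array was highest for all 3 genes, and the lowest group differed, being feeder day 32 for Nodal, feeder day 17 for Gdf3 and feeder-free day 32 for Acvr1c. For Gdf3 and Acvr1c these lowest levels lay within the background, where order means little. Replicate arrays had a pooled SD of 0.06 for Nodal, 0.12 for Gdf3 and 0.20 for Acvr1c over the 3 pairs. For Nodal only feeder-free day 17 and feeder day 32, next to each other in the order, differed by less than that SD, with a gap of 0.03. For Gdf3 the feeder day 0 and day 7 arrays did so, with a gap of 0.04, and the feeder-free day 17 and day 32 means, with 0.07. For Acvr1c the gaps of 0.19 between feeder-free day 7 and feeder day 32, 0.01 between feeder day 32 and feeder day 17, and 0.05 between feeder-free day 17 and day 32 were below the SD.

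Likeness of pattern was measured as the root mean square difference between 2 genes over the 8 group means, each gene centred on its own mean, so that 0 is an identical course. Profiles were not scaled for size. A gene that changes at the same times by another amount therefore counts as unlike. The gene most like Nodal was Pald1, with 0.14, followed by Tfcp2l1, a transcription factor of naive pluripotent cells, with 0.14, and by Gpc2, Kdm3a and Cacna1b, with 0.19, 0.22 and 0.22. The median over all other genes was 1.25. Pald1 is also the nearest protein-coding gene before Nodal in the RefSeq order on GRCr8. Its feeder levels were 12.16, 11.81, 9.59 and 9.74 by day, and its feeder-free group means 12.75, 10.47, 9.57 and 10.25, so that it showed the higher feeder day 7 level and the higher feeder-free day 32 than day 17 level seen in Nodal. The other near neighbours of Nodal were less like it. Prf1, beyond Pald1, lay near the background, changed by 0.11 between day 0 and day 32 and ranked 8015th in likeness to Nodal. On the other side Eif4ebp2 changed by -0.66 and ranked 1116th, and Lrrc20 changed by -0.72 and ranked 1274th.

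Gdf3 had no neighbour in pattern as close. Its likest genes were Cd55 at 0.42, Moxd1 at 0.49, Sulf1 at 0.52 and Htr5b and Tmc1 at 0.55 each, against a median of 1.92 over all genes. For Acvr1c they were Syt9 at 0.30, Smc1b at 0.41, Cpe at 0.42, Htr5b at 0.43 and Ugt8 at 0.46, against a median of 1.68. Sox2, a core transcription factor of pluripotency, ranked 10th for Gdf3 and 9th for Acvr1c, at 0.57 and 0.49. Not all stem cell markers were as alike. Nanog ranked 13446th for Nodal, at 1.68, above the median of 1.25, and 1829th for Acvr1c. These ranks reflect the depth of its fall and do not show another timing. Its group means were 13.35, 13.29, 7.82 and 7.13 by day with feeders and 13.92, 10.20, 7.39 and 7.39 without. Pou5f1 ranked 964th, 791st and 951st for Nodal, Gdf3 and Acvr1c. In the same order Esrrb ranked 103rd, 156th and 133rd, and Dppa3 304th, 141st and 290th. Tfcp2l1 ranked 69th for Gdf3 and 24th for Acvr1c. Klf4 was higher at day 32 than at day 0 in both cultures. Among themselves the 3 genes gave 0.61 for Acvr1c and Nodal, 0.79 for Gdf3 and Nodal, and 0.82 for Acvr1c and Gdf3. In likeness to Acvr1c, Nodal ranked 31st and Gdf3 99th among 14505 genes. To Gdf3, Nodal ranked 57th and Acvr1c 63rd, and to Nodal, Acvr1c ranked 264th and Gdf3 579th. The 8 group means come from 11 arrays of 1 line and are described without a test.

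Gdf3 lies beside Dppa3 and Nanog, a pluripotency cluster well known in mouse and human, and in the RefSeq order Dppa3 is next to it and Nanog follows. These neighbours were looked at after the values had been seen. Between day 0 and day 32 Nanog fell by 6.20 ± 0.73 (limma, adjusted p = 0.000583) and Dppa3 fell by 1.53 ± 0.42 (adjusted p = 0.0237), and the change of Gdf3 lay between them at -3.83. Nanog had 13.35 and 13.29 at days 0 and 7 of the feeder culture and 7.82 and 7.13 at days 17 and 32, so that its feeder day 7 level, like that of Gdf3, lay close to day 0. In pattern Dppa3 ranked 141st and Nanog 207th in likeness to Gdf3. On the other side Apobec1 changed by -0.32 (adjusted p = 0.629), and Mfap5 rose by 2.02 (adjusted p = 0.00482). The 4 nearest measured genes around Acvr1c, which are Cytip, Ermn, Acvr1 and Upp2, changed by between -0.10 and 0.14, and limma called none of them.

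**Figure D3:**
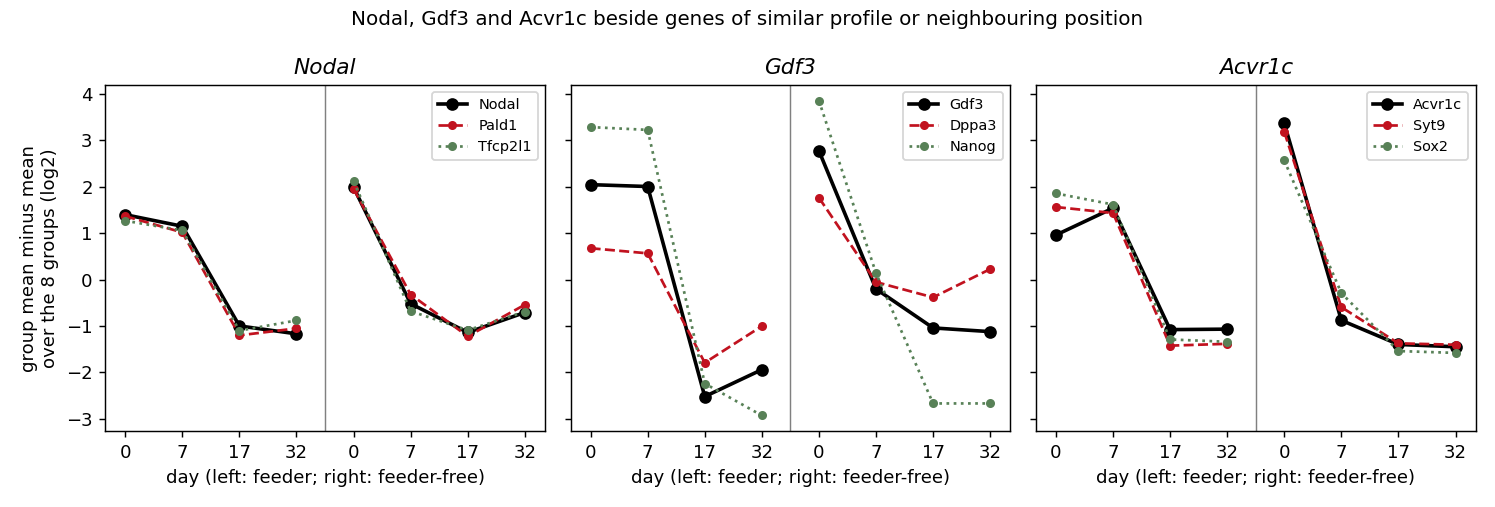
Group means of Nodal, Gdf3 and Acvr1c (black), each minus its own mean over the 8 groups (log2), for the feeder days on the left and the feeder-free days on the right, with 2 other genes in each panel. Pald1 and Tfcp2l1 run close to Nodal (root mean square difference 0.14 each), while Nanog falls deeper than Gdf3 and Dppa3 less deep.

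The rest of the Nodal pathway was described from a list of 43 genes, of which 33 were measured by a row with 1 symbol, 30 of them besides Nodal, Gdf3 and Acvr1c. The co-receptor genes Tdgf1 and Cfc1 were among the 10 not analysed here. Between day 0 and day 32, 6 of the 30 rose, 5 fell and 19 did not pass the test, or 36.7% called against 31% of all genes, with a median change of 0.13 against 0.05 over all genes. The share called was thus near that of all genes. None of the 3 other ligands and none of the 3 other receptors passed. Acvr1b, the gene for the other type I receptor of Nodal, had 10.75, 10.43, 11.09 and 11.41 by day with feeders, and 11.20 at day 0 and between 10.70 and 11.33 on the later feeder-free arrays. Its change between day 0 and day 32 was small and did not pass the test, while Acvr1c fell. Inhba, which encodes the activin A subunit, had 9.57, 10.20, 9.51 and 8.62 by day with feeders and between 8.13 and 9.36 without.

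Among the secreted inhibitors, Lefty1, which blocks Nodal at its receptors, fell, mostly in the feeder culture, while the activin-binding follistatins rose. Between day 0 and day 32 Lefty1 went from 13.32 to 8.78 with feeders and from 9.51 to a mean of 8.58 without. The difference between these changes, feeder minus feeder-free, was -3.61 ± 0.26. Lefty1 had 13.32, 14.57, 9.15 and 8.78 at days 0, 7, 17 and 32 of the feeder culture, against 9.51 at day 0, 11.46 and 11.76 at day 7, 8.71 and 8.43 at day 17, and 8.44 and 8.72 at day 32 of the feeder-free culture. Its day 7 values were the highest in each culture, though the change between day 0 and day 7 did not pass the test (1.48 ± 0.75, limma, adjusted p = 0.223), and it was low in the feeder-free stem cells, where all 3 of Nodal, Gdf3 and Acvr1c were at their highest. Lefty1 fell by 3.83 ± 0.66 between day 7 and day 17 (limma, adjusted p = 0.0114) and by 2.47 ± 0.75 between day 0 and day 32 (adjusted p = 0.034). Without the feeder day 17 array the change between day 7 and day 17 was -3.30 and lost its call (adjusted p = 0.0551), as it did without a culture term (adjusted p = 0.0839). The day 0 to day 32 call was lost without the feeder day 0 array (-1.28), the feeder day 32 array (-1.67), the feeder-free day 17 replicate 2 (-2.46) or the feeder-free day 32 replicate 1 (-2.67), and without the feeder-free day 0 array the change was -3.84. It was also lost with the replicate block (-2.58, adjusted p = 0.0501) and without a culture term (-2.77, adjusted p = 0.127). Over all days Lefty1 was 1.76 ± 0.51 higher with feeders (adjusted p = 0.029), a call lost with array weights (0.91) and without either day 0 array or any of the 3 day 7 arrays.

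Lefty2 also had its highest values at day 7, with 8.45, 11.85, 7.78 and 7.53 by day with feeders and 7.48 at day 0, 8.95 and 9.13 at day 7 and between 7.90 and 8.04 later without. Its change between day 0 and day 7 was 2.14 ± 0.66 and did not pass (limma, adjusted p = 0.0591). The difference between the cultures in that change, feeder minus feeder-free, was 1.83 ± 0.20 for Lefty2 (adjusted p = 1.2e-05) and -0.86 ± 0.26 for Lefty1 (adjusted p = 0.0274). The call of Lefty1 was lost with quantile normalization, median centring or all rows and without the feeder-free day 7 replicate 2 (-0.71). In the feeder-free arrays alone both rises to day 7 were called, at 2.11 ± 0.17 for Lefty1 (adjusted p = 1.78e-07) and 1.56 ± 0.13 for Lefty2 (adjusted p = 2.96e-07). In the joint fit the change of Lefty1 passed without the feeder day 0 array (2.68), and that of Lefty2 without the feeder day 7 array (1.09) or the feeder day 32 array (2.21). The change of Lefty2 between day 7 and day 17 was -2.08 ± 0.58 and did not pass (adjusted p = 0.0502). Between day 0 and day 32 the change of Lefty2 was 0.01 ± 0.66 (limma, adjusted p = 0.995), with all day 32 arrays within the background. Fstl3 rose by 1.64 ± 0.12 between day 0 and day 32 (adjusted p = 0.000105) and Fst by 0.75 ± 0.19 (adjusted p = 0.0154), the change of Fst being 0.31 without the feeder-free day 0 array and losing its call there and without the feeder day 32 array. Both had risen by day 7, Fstl3 by 1.45 ± 0.12 (adjusted p = 0.000366) and Fst by 1.14 ± 0.19 (adjusted p = 0.00719).

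**Figure D4:**
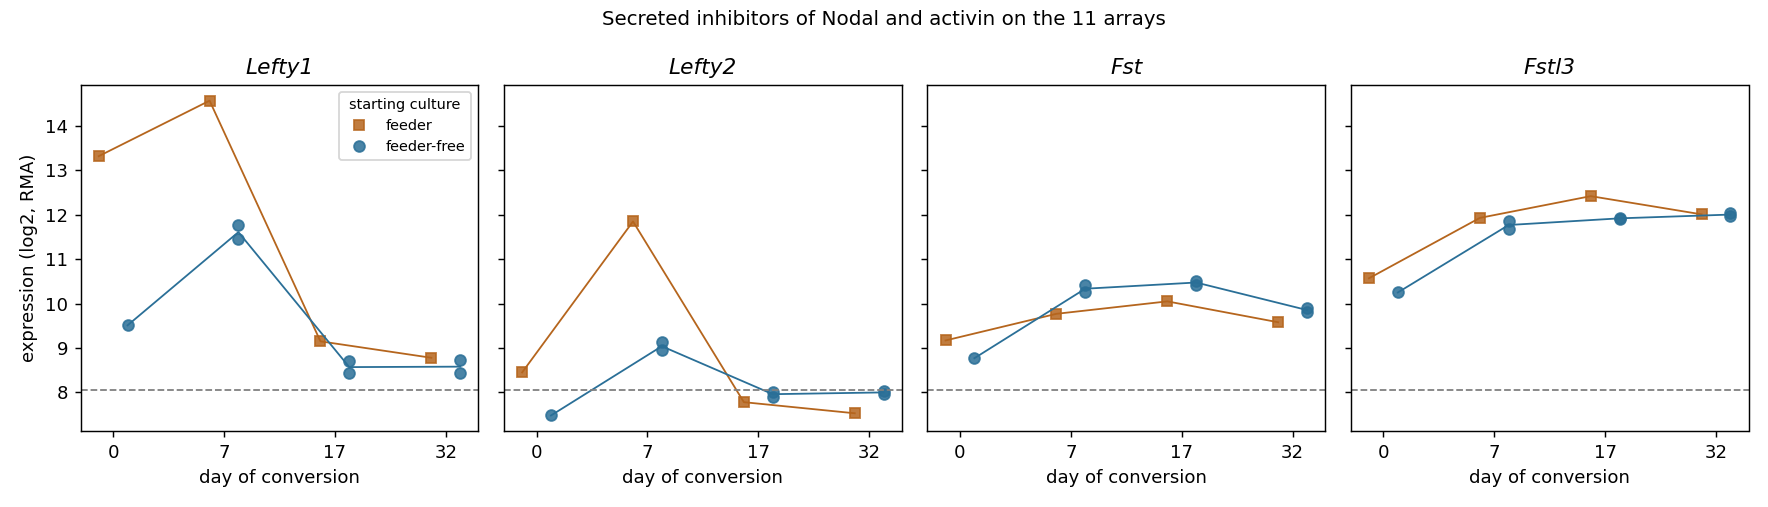
Log2 expression of the secreted inhibitors Lefty1, Lefty2, Fst and Fstl3 on each of the 11 arrays against the day of conversion, drawn as for Nodal, with a dashed line at 8.06. Lefty1 and Lefty2 have their highest values at day 7 in both cultures, with feeder values of 14.57 and 11.85.

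Furin, a protease that processes Nodal precursors, rose by 2.43 ± 0.27 between day 0 and day 32 (limma, adjusted p = 0.000482). Inside the cell Foxh1, the DNA-binding partner of Smad2 and Smad3, fell by 1.30 ± 0.24 (adjusted p = 0.00372), with feeder levels of 11.12, 10.90, 9.38 and 9.51 by day, against 10.52 at day 0, 9.85 and 9.80 at day 7 and between 9.31 and 9.52 later without feeders. Foxh1 kept a high level at feeder day 7, as the 3 genes did. Its difference between the cultures in the day 0 to day 7 change was 0.47 ± 0.20, however, and was not called. Between day 7 and day 17 that difference was -1.10 ± 0.19 and was called. For the intracellular inhibitor Tgif1 the differences in the same 2 intervals were 2.25 ± 0.18 and -1.48 ± 0.17, both called. Zfyve9, which presents Smad2 and Smad3 to the receptor, rose by 1.26 ± 0.17 (adjusted p = 0.000882). The intracellular inhibitors gave 3 falls among 5 genes, where 13.7% of all genes were called lower, with changes of -1.29 ± 0.22 for Smad7 (adjusted p = 0.00271), -2.12 ± 0.41 for Tgif1 (adjusted p = 0.00482) and -0.34 ± 0.11 for Drap1 (adjusted p = 0.0437). Without the feeder-free day 0 array Smad7 changed by -0.82, and the calls of Tgif1, at -1.49, and of Drap1 were lost, that of Drap1 also without 6 other arrays. The call of Drap1 was lost as well with all rows (adjusted p = 0.0565), array weights (0.0873), the replicate block (0.0756) and no culture term (0.311). Ncln, an endoplasmic reticulum antagonist of Nodal signalling, rose by 0.60 ± 0.08 (adjusted p = 0.000913). Among 5 targets of the pathway only Foxa2, also a gene of endoderm identity, was called, with a rise of 2.98 ± 0.52 (adjusted p = 0.00301). It stood at 8.95 and 9.10 at feeder days 0 and 7, and at 11.77 on both feeder-free day 7 arrays. Tbxt lay within the background on every array but feeder day 0. Lhx1, at 7.79 to 8.55, and Mixl1, at 7.97 to 8.71, lay near it, so the lack of a call says little for these targets. Fgf8, at 9.22 to 9.62, lay above the background on every array. Its change between day 0 and day 32 was 0.15 ± 0.10 and did not pass the test (limma, adjusted p = 0.328).

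In the other comparisons the 30 genes gave 4 rises and 0 falls between day 0 and day 7, 4 rises and 3 falls between day 7 and day 17, and 0 calls between day 17 and day 32, where 4 had an unadjusted p under 0.05. The shares called were 13.3% and 23.3% in the earlier 2 intervals, against 16% and 12.8% of all genes. Leaving out an array moved these counts to between 2 and 12 for day 0 to day 7, with 12 without the feeder day 7 array, and to between 0 and 9 for day 7 to day 17, with 0 without the feeder day 17 array. Between the cultures 4 were higher and 5 lower with feeders, 30% called against 32.7% of all genes. Both called receptors were lower with feeders, among them Acvr2a, a type II receptor, at -0.83 ± 0.12 (limma, adjusted p = 0.000932). For the differences between the cultures' changes the shares called were higher than those of all genes. They were 46.7% against 22% between day 0 and day 7, and 36.7% against 19.7% between day 7 and day 17. Between day 0 and day 32 they were 20% against 10.6%. The called differences ran both ways in the earlier 2 of these and were all negative in the last. That fit rests on lone feeder arrays, and no set test was run.

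**Figure D5:**
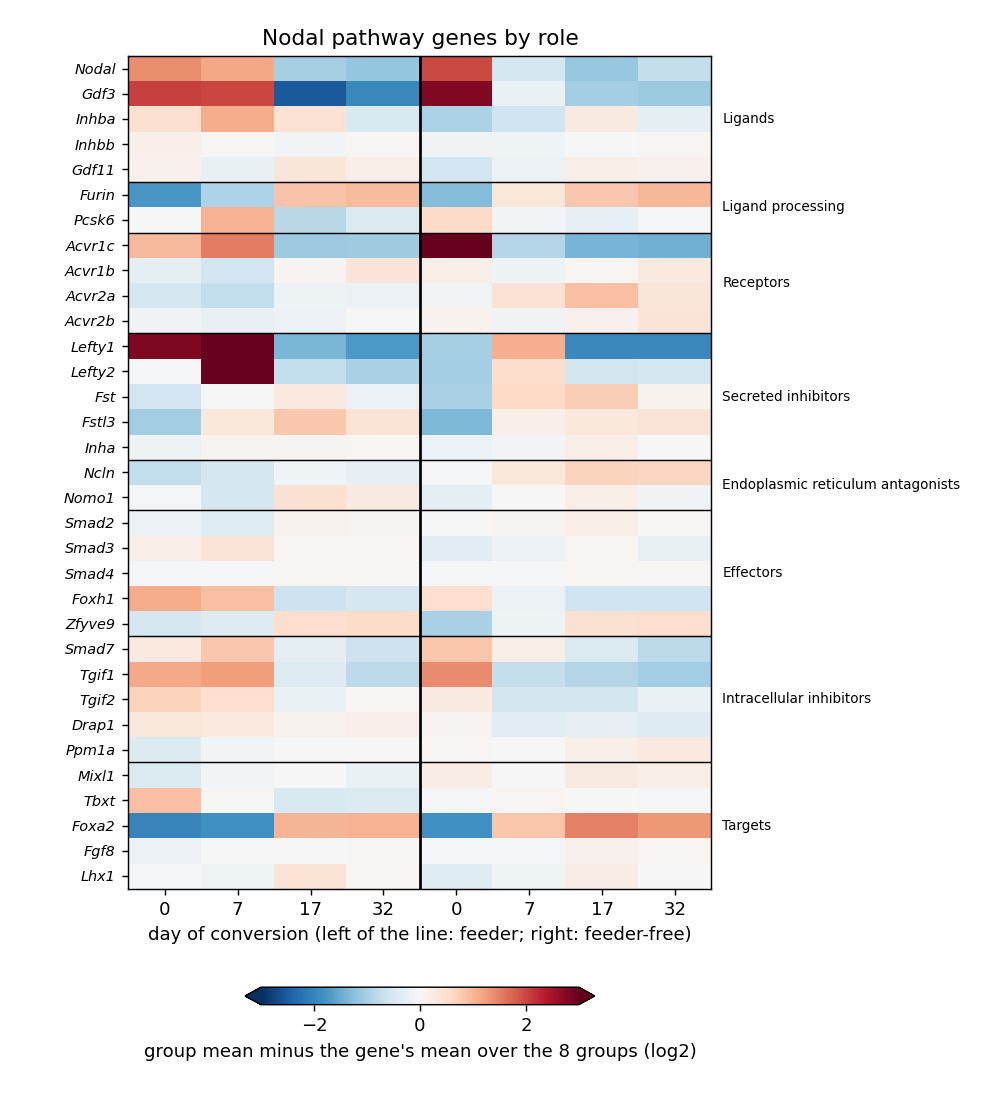
Group means of the 33 measured Nodal pathway genes, each minus its own mean over the 8 groups (log2, colours end at 3 either way), in rows by role and with feeder days left of the line and feeder-free days right of it. Nodal, Gdf3, Acvr1c, Lefty1 and Foxh1 are red at feeder day 7, and Furin and Foxa2 are blue in the stem cells.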

How the data were processed

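RNA of 11 samples was hybridised to Affymetrix Rat Gene 1.0 ST arrays. The authors deposited log2 values, 1 per row and array, which per the submitters' processing notes come from RMA, whose version and software are not given in the sources used here. No source states how all arrays came to share a median. Detection per probe could not be examined from this table, and RMA draws low values together, which understates changes of dim genes. Precision is limited by the number of arrays.

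Of 29214 rows, 15310 had 1 gene symbol in the platform annotation, 323 several and 13581 none. For 527 genes with more than 1 row the row with the highest mean was kept, which left 14506 genes, and Nodal, Gdf3 and Acvr1c have 1 row each. Of the rows with 1 symbol 15279 matched RefSeq (GRCr8), and 0 had their symbol updated.

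Comparisons between days and cultures came from limma 3.58.1 in R 4.3.3 (lmFit, eBayes) on all 11 arrays, with day and culture as terms (6 residual degrees of freedom). Differences between the cultures' changes came from a fit of 8 group means (3 residual degrees of freedom), and feeder-free changes from a fit of those 7 arrays (3 residual degrees of freedom). P-values are two-sided, adjusted by Benjamini-Hochberg over all genes and called under 0.05. No dim genes were left out. The script was tested on simulated data. A change within 1 culture is a difference of group means.

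The 3 genes, the pathway and marker lists and the tests were chosen with earlier results of these data known. The receptor genes that set the background were extended to current symbols after the data were seen. Named pathway genes were at most 4 per role that were called, by size of change, and the 5 likest genes were named for each of the 3 genes. Inhba, Acvr1b, Lefty2, Tbxt, Fgf8, Sox2, the other stem cell markers ranked beside Sox2 and the genomic neighbours were chosen after their values were seen. Alternatives were quantile normalization, median centring, all rows, averaging a gene's rows, leaving out the dimmest 25% of genes, array weights, trend and robust options, the replicate block, a model without culture, 8 group means, the feeder-free culture by itself, and each array omitted in turn. Gene order was taken from RefSeq on GRCr8, and no genome was used.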

Additional observations from a re-analysis of the deposited data

Results flagged for a closer look

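Of the results above, 7 were picked out because a change differed between the feeder and feeder-free cultures in a test of the difference itself (limma, 8 group means, adjusted over all genes). Between day 0 and day 7 the feeder minus feeder-free difference in change was 2.26 for Nodal, 2.93 for Gdf3 and 4.83 for Acvr1c. Between day 7 and day 17 it was -1.53 for Nodal, -3.69 for Gdf3 and -2.09 for Acvr1c. Over the course from day 0 to day 32 it was 2.80 for Acvr1c. Each feeder group is 1 array, so no spread between feeder replicates stands behind these tests, and the cultures also differ in laminin, BMP4 and PD0325901 dose at the start, which cannot be told apart from the feeders.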

How the results depend on the processing

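The falls of Nodal, Gdf3 and Acvr1c between day 0 and day 32 kept their calls under all 11 alternatives other than leaving out an array, the feeder-free arrays alone included. With 1 array left out they ranged from -3.00 to -1.96, from -4.15 to -3.47 and from -5.04 to -1.58, and the calls were lost without the feeder-free day 0 array. The differences between the cultures' changes kept their direction and call for all 7 called results under the 8 alternatives that apply. The replicate numbers of the feeder-free arrays were not found to pair samples, since same-numbered deviations correlated at 0.0341, -0.195 and -0.0991 over the 3 pairs of days. With the replicate block the day 7 minus day 0 change of Nodal was -1.58 (adjusted p = 0.0853), and 3 pathway genes were called between day 7 and day 17. The block changed no other call of Nodal, Gdf3 and Acvr1c. Among the named pathway genes the block ended the calls of Lefty1 and Drap1 between day 0 and day 32, as did a fit without a culture term, which also ended that of Ncln (0.73).

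The cause of the following changes was not tested, beyond the smaller number of arrays or the number of rows tested in some. For day 7 minus day 0 the call of Nodal was also lost with all rows (-1.61) and without a culture term (-1.65). Gdf3 and Acvr1c were called there with array weights (-2.89 and -2.79), with 8 group means (-1.51 and -1.83) and with the feeder-free arrays alone (-2.97 and -4.25). With 1 array left out the ranges were -2.35 to -1.06, -3.13 to -1.49 and -3.79 to -0.33 for Nodal, Gdf3 and Acvr1c. For day 17 minus day 7 calls appeared with 8 group means (-1.39, -2.69 and -1.57), with the feeder-free arrays alone (-0.63, -0.84 and -0.53) and, for Gdf3, with array weights (-1.21), and with 1 array left out Gdf3 ranged from -2.52 to -0.99, the last being called (without the feeder day 7 array). For day 32 minus day 17 Nodal was called with the feeder-free arrays alone (0.43), Gdf3 turned to -0.07 there and Acvr1c to 0.03 with median centring, neither of them called. Leaving out 1 array gave -0.45 to 0.45 for Gdf3 and -0.06 to 0.02 for Acvr1c. The feeder minus feeder-free difference of Nodal was -0.04 with array weights and 0.19 with 8 group means (called), and that of Gdf3 was called at -0.97 and -0.20. With 1 array left out these differences ranged from -0.28 to 0.50 for Nodal, from -1.04 to 0.31 for Gdf3 and from -0.40 to 1.04 for Acvr1c.

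Counts of called pathway genes moved to 7, 14 and 17 between day 0 and day 7 with array weights, 8 group means and the feeder-free arrays alone. Between day 7 and day 17 they moved to 3 with quantile normalization, 4 with all rows, 13 with array weights, 19 with 8 group means, 0 without a culture term and 12 with the feeder-free arrays alone. For day 32 minus day 17 they moved to 3, 2 and 3 with array weights, 8 group means and the feeder-free arrays alone, for day 32 minus day 0 to 19 and 17 with the last 2 of these, and between cultures to 20 with 8 group means. With 1 array left out they ranged from 2 to 12 for day 7 minus day 0 and from 0 to 9 for day 17 minus day 7. Over all genes the counts were 2322 for day 7 minus day 0 (805 without a culture term, 1325 with the block, 4887 with 8 group means, 5348 with the feeder-free arrays alone, 684 to 4448 with 1 array left out), and 1850 for day 17 minus day 7 (266, 984, 5347 and 3458 in the same order, 2852 with array weights, 364 to 2344 with 1 array left out). They were 0 for day 32 minus day 17 (792 with array weights, 934 with 8 group means, 1062 with the feeder-free arrays alone, 0 to 232 with 1 array left out), 4504 for day 32 minus day 0 (2573 without a culture term, 2536 to 5528 with 1 array left out), and 4749 between cultures (9904 with all rows, 7699 with 8 group means). The fit with all rows tested 29214 rows, so its 9904 calls are not a count among the 14506 genes. For the 24 values of named pathway genes, 439 of 508 alternative values kept direction and call, 56 lost the call, 13 gained it and 0 turned direction. Signal over background is unknown per probe, and levels near 8.06 limit what can be said of Acvr1c and Gdf3 after day 7.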
